A study of Mus musculus with 10 samples.

Results

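The genes described here are 10 regulators of transcription in photoreceptors: Crx, Nrl, Nr2e3, Otx2, Rorb, Neurod1, Prdm1, Esrrb, Mef2d and Samd7. They were chosen by symbol, with earlier results of these data known. All 10 were found among the 24736 symbols of the deposited mRNA table and passed the low-count filter, which left 18988 genes to test. RNA came from eyeballs of Kunming mice. They are an outbred stock, and the labels give females aged 4 weeks. In 2 libraries (natural light A and B) the mice were kept in natural light, and in 3 (blue A, B and C) they were kept under an 18 W blue lamp (Philips PL-L) inside a dark container. The sample titles carry day 14, and no allele, transgene or drug is named for either group. Whether each library is a different animal is not stated. The p-values therefore cover the spread between these 5 libraries alone, and that spread may be technical.

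Photoreceptor identity is set by a layered network of transcription factors. Otx2 commits retinal progenitors to the photoreceptor fate and turns on its close relative Crx, which drives many photoreceptor genes. Rorb acts upstream of Nrl, the leucine zipper factor that makes a photoreceptor a rod. Nrl turns on Nr2e3, an orphan nuclear receptor that works with Crx and Nrl on rod genes and represses cone genes. Prdm1 holds back the bipolar cell program, Neurod1 supports photoreceptor survival and cone opsin choice, and Esrrb, Mef2d and Samd7 act later, Esrrb and Mef2d on genes of mature photoreceptors and Samd7 as a Polycomb partner that silences non-rod genes, without being a classical DNA-binding factor itself. In an adult rod many of these proteins still maintain the expression of the visual genes.

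The promoters of the regulators that fell under blue light are shown first, because Crx is known to bind photoreceptor promoters, its own included. That of Samd7, which did not pass the test, is printed beside them. The windows come from RefSeq (GRCm38.p6, the assembly called mm10), run 5′ to 3′ on the gene's strand, and hold 250 bases before and 50 bases from an annotated transcript start. Capitals mark every match to a searched motif. The window of Crx is chr7:15879906-15880205 on the minus strand, that of Nrl is chr14:55524203-55524502 on the minus strand, that of Nr2e3 is chr9:59950030-59950329 on the minus strand, and that of Samd7 is chr3:30746043-30746342 on the plus strand.
Crx: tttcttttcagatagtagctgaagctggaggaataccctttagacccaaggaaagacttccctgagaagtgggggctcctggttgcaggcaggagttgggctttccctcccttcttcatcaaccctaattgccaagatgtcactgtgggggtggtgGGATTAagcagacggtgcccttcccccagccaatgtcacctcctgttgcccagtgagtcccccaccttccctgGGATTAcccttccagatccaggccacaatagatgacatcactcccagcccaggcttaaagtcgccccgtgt
Nrl: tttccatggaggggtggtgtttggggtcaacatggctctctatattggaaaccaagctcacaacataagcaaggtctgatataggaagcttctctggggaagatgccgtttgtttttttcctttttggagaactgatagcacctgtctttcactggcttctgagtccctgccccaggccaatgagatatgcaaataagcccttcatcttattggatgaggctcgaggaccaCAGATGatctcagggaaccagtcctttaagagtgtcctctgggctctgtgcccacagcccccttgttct
Nr2e3: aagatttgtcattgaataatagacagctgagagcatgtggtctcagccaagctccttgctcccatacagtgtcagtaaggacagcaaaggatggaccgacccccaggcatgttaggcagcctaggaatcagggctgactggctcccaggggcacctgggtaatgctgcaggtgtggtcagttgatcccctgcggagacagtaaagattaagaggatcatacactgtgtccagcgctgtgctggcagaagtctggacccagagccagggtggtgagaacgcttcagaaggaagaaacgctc
Samd7: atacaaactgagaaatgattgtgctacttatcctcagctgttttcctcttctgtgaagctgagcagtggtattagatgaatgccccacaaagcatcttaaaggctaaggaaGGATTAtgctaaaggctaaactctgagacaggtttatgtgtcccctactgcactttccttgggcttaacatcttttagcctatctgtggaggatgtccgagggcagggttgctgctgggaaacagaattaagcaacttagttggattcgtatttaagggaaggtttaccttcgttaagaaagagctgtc

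Both strands were searched for the Crx and Otx2 core TAATCC, the Nrl element core TGCTGA, the nuclear receptor core AGGTCA, the E-box CAGATG and the palindromic Mef2 box. The Crx promoter held 2 copies of the Crx core on the strand opposite to the gene (read as GGATTA), which begin 94 and 21 bases before the start. The Samd7 promoter held 1 copy, 139 bases before the start, also on the opposite strand. The Nrl window held 1 E-box, 19 bases before the start, and the Nr2e3 window held none of the 5 motifs. All 10 regulators had at least 1 window in the RefSeq table, 15 windows in total. The Crx core lay in 3 of the 15, those of Crx, Otx2 and Samd7, against 7.06% of all 32851 windows. Of these, Crx fell under blue light, while Otx2 and Samd7 did not pass the test. The windows of Nrl and Nr2e3, which also fell, held no Crx core. The Nrl core lay in 5 of the 15 (Otx2, Rorb, Neurod1 and Mef2d), against 19.5% of all windows. In Neurod1 it occurred as 2 copies that abut without overlap. The E-box lay in 2 of the 15 (Nrl and Otx2), against 17.2%. The nuclear receptor core lay in 0 of the 15, against 16.3%, and the Mef2 box in 0 of the 15, against 3.69%. A match is a description of the letters in the window, and no test was made of it. Binding of the proteins to these windows was not measured.

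Of the 10 regulators, 3 fell under blue light and 0 rose. Nrl fell by 2.08 on the log2 scale, Nr2e3 by 1.41 and Crx by 0.82, blue light minus natural light, and the other 7 did not pass the test. Among all 18988 genes tested, 1.55% were called lower and 0.664% higher. The regulators and the lists below were chosen with earlier results of these data known. A share over all genes is therefore a description beside each count, not a test. Calls are an adjusted p under 0.05 in the quasi-likelihood test of edgeR, adjusted by Benjamini-Hochberg over all genes tested. With an unadjusted p under 0.05 in edgeR, 5 regulators were lower and 0 higher, against 9.27% and 7.03% of all genes. DESeq2 called 3 lower and 0 higher, against 4.78% and 4.6% of the genes it gave an adjusted p, and limma-voom called 3 lower and 0 higher, against 1.72% and 0.69%. In 7 of the 10 every blue library lay below both natural light libraries, which was so for 20.1% of all tested genes, and in 0 every blue library lay above them, against 15.6%. A negative log2 fold change was found in 9 of the 10, against 51% of all tested genes. The median log2 fold change of the 10 was -0.43, beside -0.0056 over all genes tested. An eyeball library averages over retina, lens, cornea and attached tissue, and fewer cells of a type and less RNA per cell cannot be told apart in it.

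**Figure D1:**
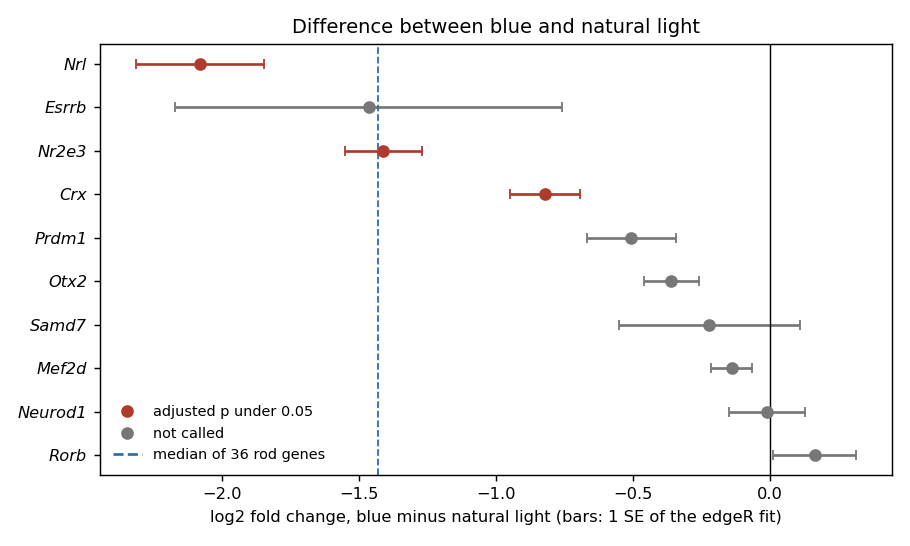
Log2 fold change (blue minus natural light) of each of the 10 regulators on the x axis, with bars of 1 standard error of the edgeR fit, and the median of 36 rod genes as a dashed line. Nrl at -2.08, Nr2e3 at -1.41 and Crx at -0.82 are the 3 called genes, and Esrrb at -1.46 has the widest bar (standard error 0.71).

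The 5 mRNA libraries held between 87071487 and 107660103 estimated counts. Their Spearman correlations over tested genes ran from 0.974 to 0.991. The ribosomal RNA gene Rn45s took between 4.30% and 14.4% of a library, with natural light A lowest, natural light B at 14.1% and blue C highest. Levels below are CPM, the count per library total after TMM scaling. Lens markers, as belongs to an eyeball, summed to between 51292 and 55666 CPM over 18 genes. Of them 0 passed the test in edgeR and 1 had an unadjusted p under 0.05, while DESeq2 called 1 and limma-voom 0. The 36 rod genes summed to 40447 and 43607 CPM in natural light and to between 11645 and 18638 CPM under blue light. Skeletal muscle markers, from tissue attached to the globe, summed to 748 and 1596 CPM in natural light A and B and to 1542, 802 and 831 CPM in blue A, B and C, and all 14 were above 0 in every library.

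Nrl, the rod-determining factor, stood at 211 and 195 CPM in natural light A and B and at 34.6, 62.1 and 47.0 CPM in blue A, B and C. Every blue library lay far below both natural light libraries, and blue A was the lowest of all. The means were 203 ± 11.3 (SD, n = 2) and 47.9 ± 13.8 CPM (SD, n = 3), a 4.23-fold lower level (log2 fold change -2.08, SE 0.23, edgeR adjusted p = 0.0202). The SE was derived as the size of the log2 fold change over the root of F. The blue libraries held 17.1%, 30.7% and 23.2% of the natural light mean. Nrl (RefSeq gene 18185) spans chr14:55518978-55524981 and overlaps no other gene of the reference table. Its promoter window printed above lies inside this span.

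Nr2e3, the rod nuclear receptor that Nrl turns on, stood at 213 and 208 CPM in natural light and at 64.8, 89.5 and 82.7 CPM in blue A, B and C. The natural light libraries lay close together, and the groups did not overlap. The means were 210 ± 3.75 and 79.0 ± 12.8 CPM, a 2.66-fold lower level (log2 fold change -1.41, SE 0.14, edgeR adjusted p = 0.0183). Nr2e3 (gene 23958, chr9:59942771-59960834) overlaps the noncoding gene Gm7616 (59951296 to 59952403), which averaged 1.38 CPM over the libraries. Whether the counting used strand is not stated in the sources used here, and with the overlapping genes summed the log2 fold change was -1.42. The promoter window printed above lies inside this span.

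Crx, the homeodomain factor shared by rods and cones, stood at 657 and 662 CPM in natural light and at 314, 423 and 382 CPM in blue A, B and C. All blue libraries lay below the natural light libraries, which were 1.01-fold apart. The means were 659 ± 3.51 and 373 ± 54.9 CPM, so that blue libraries kept 56.6% of the natural light mean (log2 fold change -0.82, SE 0.13, edgeR adjusted p = 0.0411). Crx (gene 12951, chr7:15865947-15879955) overlaps no other gene of the reference table.

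The calls of Nrl, Nr2e3 and Crx held without blue A (edgeR adjusted p from 0.00948 to 0.0284) and without blue B (0.0298 to 0.0484). None of the 3 passed without natural light A, without natural light B or without blue C (edgeR adjusted p from 0.088 to 0.237), or with the Rn45s share as a covariate (0.0776 to 0.125), and Crx did not pass with library totals as the only scaling (0.0743). With the library letter as a block, 0 genes of the whole table were called, and these 3 had an edgeR adjusted p from 0.249 to 0.332. The log2 fold changes of the 3 over these and all other alternatives stayed between -2.29 and -1.88 for Nrl, between -1.49 and -1.27 for Nr2e3 and between -0.90 and -0.69 for Crx.

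**Figure D2:**
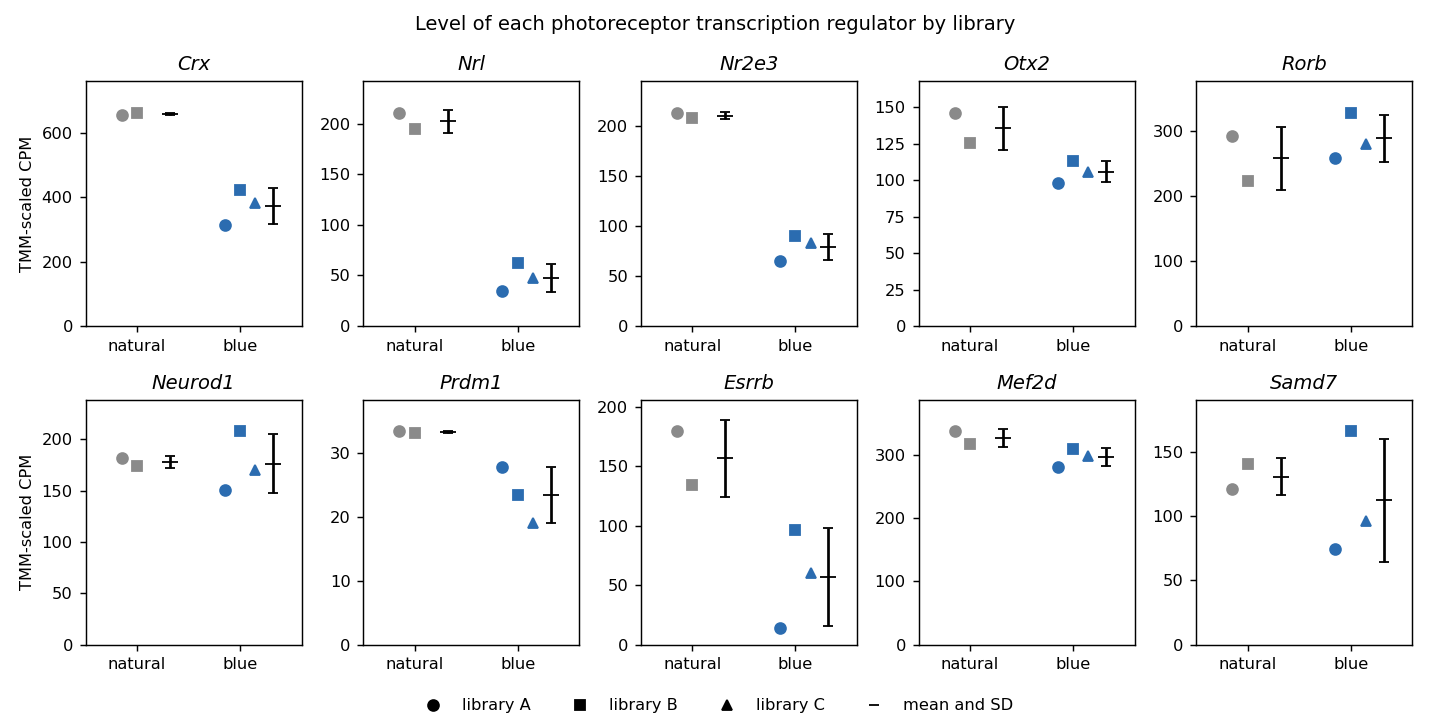
TMM-scaled CPM (y axis, from 0) of each of the 10 regulators in the 2 natural light and 3 blue libraries, with the group mean and SD beside the points. Nrl, Nr2e3, Crx, Otx2, Prdm1, Esrrb and Mef2d show separate groups, while Rorb, Neurod1 and Samd7 show groups that overlap.

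Esrrb, an orphan nuclear receptor of mature rods, had the most uneven values of the 10. It stood at 179 and 134 CPM in natural light and at 13.5, 96.3 and 60.4 CPM in blue A, B and C. The groups did not overlap, but the blue libraries differed among themselves by 7.11-fold, with blue A far below the others. The log2 fold change was -1.46 (SE 0.71) and missed the threshold (edgeR adjusted p = 0.383). Without blue A it was -0.98, and without blue B it was -2.06. Esrrb (gene 26380, chr12:86361117-86521628) touches the noncoding gene Gm40483, which was not analysed here.

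Prdm1, the zinc finger repressor that keeps photoreceptor precursors from becoming bipolar cells, stood at 33.3 and 33.1 CPM in natural light and at 27.7, 23.4 and 19.0 CPM in blue A, B and C. All blue libraries lay below the natural light libraries, and blue C was lowest here, unlike in the other 9 regulators. The log2 fold change was -0.51 (SE 0.16, edgeR adjusted p = 0.205). Prdm1 is also made by immune and epithelial cells. Markers of microglia and macrophages (9 genes, all above 0 in every library, 0 called in edgeR with 7 higher at an unadjusted p under 0.05, 7 called higher in DESeq2 and 0 in limma-voom) summed to 78.4 and 111 CPM in natural light and to between 169 and 235 CPM under blue light, and markers of corneal and skin epithelium to between 5014 and 6456 CPM with groups that overlap. Their part in the level of Prdm1 was not tested.

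Otx2, which also acts in bipolar cells and the pigment epithelium, stood at 146 and 125 CPM in natural light and at 98.3, 113 and 106 CPM in blue A, B and C. The groups did not overlap, and the blue libraries kept 77.9% of the natural light mean (log2 fold change -0.36, SE 0.10, edgeR adjusted p = 0.162). With the muscle marker level as a covariate the edgeR adjusted p was 0.0395, and without natural light A the log2 fold change was -0.22 (0.563). The summed level of 8 bipolar cell markers was 1476 and 1433 CPM in natural light and between 1316 and 1535 CPM under blue light, and that of 10 pigment epithelium markers was 2165 and 2502 CPM against between 2318 and 2741 CPM. Both sums had groups that overlap, but the bipolar markers went both ways. Prkca fell by 0.79 (edgeR adjusted p = 0.0218). Without overlap and without a call, Pcp2 (-0.32) and Gng13 (-0.091) lay lower, and Trpm1 (0.30) and Nyx (0.39) lay higher. Of the pigment epithelium markers, 0 were called in edgeR with 2 higher at an unadjusted p under 0.05, 2 were called higher in DESeq2 and 0 in limma-voom. The part of either cell type in the level of Otx2 was not tested.

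Mef2d, a MADS box factor that muscle also expresses, had a small difference. It stood at 337 and 317 CPM in natural light and at 282, 309 and 299 CPM in blue A, B and C. Every blue library lay just below the natural light libraries, and the log2 fold change was -0.14 (SE 0.074, edgeR adjusted p = 0.425). With the muscle marker level as a covariate it was -0.15, without natural light A it was -0.070, and without blue A it was -0.087. Mef2d (gene 17261, chr3:88141941-88172091) overlaps the noncoding gene 1700113A16Rik, which averaged 4.21 CPM, and with the overlapping genes summed the value was -0.14.

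Rorb, the nuclear receptor upstream of Nrl, was the single member with a positive log2 fold change, 0.16 (SE 0.15, edgeR adjusted p = 0.671). It stood at 293 and 224 CPM in natural light and at 259, 328 and 280 CPM in blue A, B and C, and the groups overlapped. Without natural light B its log2 fold change was -0.019, so its sign rests on that library. Neurod1, a basic helix-loop-helix factor also made by amacrine cells, stood at 182 and 174 CPM in natural light and at 151, 208 and 171 CPM under blue light. Its log2 fold change was -0.011 (SE 0.14, edgeR adjusted p = 0.983), and 7 of 17 alternatives gave it the opposite sign, among them library totals and DESeq2's size factors, while TMM without lens, muscle and red blood cell markers gave -0.011. Samd7 stood at 121 and 141 CPM in natural light and at 74.9, 166 and 96.2 CPM in blue A, B and C, so that blue B lay above and blue A and C lay below both natural light libraries. Its log2 fold change was -0.22 (SE 0.33, edgeR adjusted p = 0.803), and without blue A it was 0.019. Samd7 (gene 75953, chr3:30746293-30767174) overlaps the noncoding gene Gm33590, which was not analysed here.

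The positions of the remaining regulators in the reference table were chr14:48656781-48667644 for Otx2, chr19:18930609-19111196 for Rorb, chr2:79452637-79456636 for Neurod1 and chr10:44437174-44528558 for Prdm1. None of these 4 overlaps another gene there.

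Within the blue group the regulators shared an order of libraries. In 9 of the 10, all but Prdm1, blue A was lowest and blue B highest, with blue C between them, under TMM scaling and under library totals alike. The same order held in 32 of 36 rod genes and in 21.0% of all tested genes. Blue A also held the most muscle marker RNA of the blue libraries, and the part of this in the order was not tested. The regulators differed in how far the blue libraries spread: the highest was 1.10-fold above the lowest for Mef2d, 1.35-fold for Crx, 1.80-fold for Nrl, 2.22-fold for Samd7 and 7.11-fold for Esrrb.

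**Figure D3:**
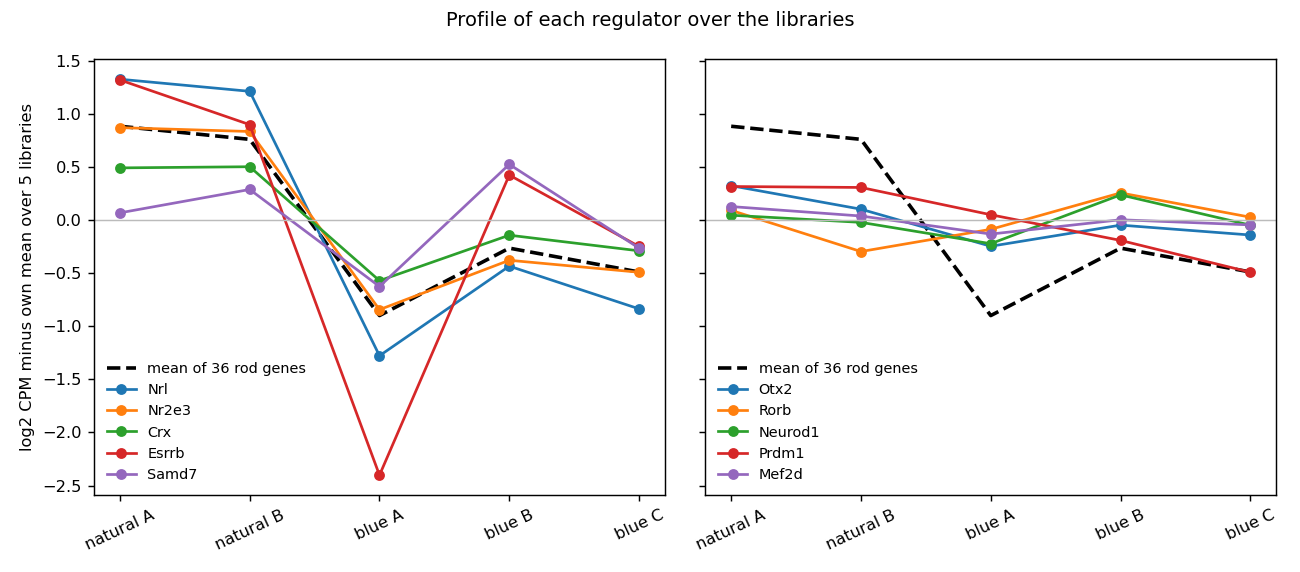
Log2 CPM of each regulator minus its own mean over the 5 libraries (y axis) in natural light A and B and blue A, B and C (x axis), beside the mean of 36 rod genes (dashed); lines join the points of 1 gene and carry no order of libraries. All regulators but Rorb and Neurod1 have positive values in both natural light libraries, and Nrl reaches -1.28 and Esrrb -2.40 in blue A.

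Rod genes, listed as targets of Crx, Nrl and Nr2e3, were mostly lower. That these factors drive each listed gene was not tested, and the list is not limited to genes that rods alone use. Of 36 such genes, 26 fell and 0 rose, with a median log2 fold change of -1.43, against 1.55% of all tested genes called lower. The count of 0 raised genes came with 1 at an unadjusted p under 0.05 in edgeR, while DESeq2 called 1 and limma-voom 0. The 6 with the smallest p were Reep6 (-1.85), Gngt1 (-1.18), Guca1b (-1.98), Guca1a (-1.55), Gnb1 (-1.59) and Rdh12 (-1.94). Within this list Nrl stood near the bottom, since 1 of 36 rod genes had a more negative log2 fold change. Nr2e3 stood in the middle, with 19 of 36 rod genes more negative, and Crx near the top, with 31 of 36 more negative. For Esrrb, which was not called, the number was 16. For Prdm1 it was 33, for Otx2 34, and for Rorb, Neurod1, Mef2d and Samd7 it was 35. As with the regulators, 0 rod genes were called in edgeR without natural light A, without natural light B or without blue C, or with the Rn45s share as a covariate (2638 genes of the whole table then had an unadjusted p under 0.05).

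Set against the rod genes of the same library, the regulators separated by whether the ratio was lower, overlapping or higher under blue light. This measure is the log2 CPM of a regulator minus the mean log2 CPM of the 36 rod genes. Because transcript lengths differ, only its difference between groups is read. For Nrl it was -1.46 and -1.45 in natural light and -2.28, -2.07 and -2.25 in blue A to C, a difference of -0.75. For Nr2e3 it was -1.44 and -1.36 against -1.37, -1.55 and -1.43, a difference of -0.051 with groups that overlap. For Crx it was 0.18 and 0.32 against 0.90, 0.70 and 0.77, a difference of 0.54. Nrl was thus lower relative to rod genes in every blue library, Nr2e3 overlapped, and Crx was higher in every blue library.

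Otx2, Samd7, Mef2d, Neurod1 and Rorb were higher relative to rod genes in every blue library, by 1.02, 1.07, 1.23, 1.35 and 1.54, and Prdm1 by 0.85. Esrrb ran from -3.63 to -1.44 under blue light and overlapped its natural light values of -1.69 and -1.99. In an exact permutation test over the 5 libraries, 2-sided, Nrl, Crx, Otx2, Rorb, Neurod1, Mef2d and Samd7 each had p = 0.1, the smallest that 10 arrangements can give (adjusted over the 10 regulators, exact p = 0.143), so this design cannot reach the threshold. Such a ratio does not show that any of these genes stayed the same.

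**Figure D4:**
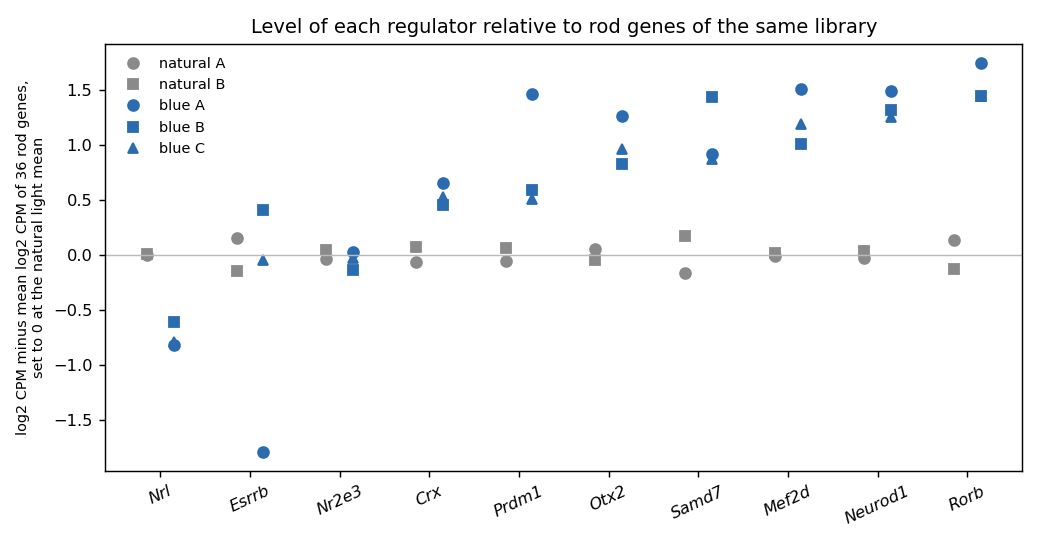
Log2 CPM of each regulator minus the mean log2 CPM of 36 rod genes of the same library (y axis), set to 0 at the natural light mean; points are libraries. The blue libraries lie below 0 for Nrl, around 0 for Nr2e3 and above 0 for Crx, Prdm1, Otx2, Samd7, Mef2d, Neurod1 and Rorb.

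Relative to Crx, Nrl and Nr2e3 were lower in every blue library. The log2 ratio of Nrl to Crx was -1.64 and -1.77 in natural light and -3.18, -2.77 and -3.02 in blue A to C, a difference of -1.29. That of Nr2e3 to Crx was -1.63 and -1.67 against -2.28, -2.24 and -2.21, a difference of -0.59, with an SD of 0.036 among the blue libraries. The ratio of Otx2 to Crx, which are related homeodomain factors, was higher in every blue library, by 0.47, that of Mef2d by 0.69, that of Neurod1 by 0.81 and that of Rorb by 1.0. For each of these 6 the groups did not overlap and the exact permutation p was 0.1 (0.15 adjusted over 9 pairs). Samd7 to Crx differed by 0.53 without overlap (exact permutation p = 0.2), and Prdm1 and Esrrb to Crx had groups that overlap.

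Genes whose profile over the 5 libraries was most like that of a regulator were sought among 14770 other tested genes with at least 1 CPM on average. Likeness was the root mean square difference of log2 CPM after each gene's own mean was subtracted, so a smaller value means a closer profile. Over these 5 libraries the closest to Crx were Peli3 (0.027), Pla2g7 (0.031), Gramd2 (0.035) and Ndrg3 (0.036). The closest to Nrl were Nxnl1 (0.037), Pde6b (0.048), Rdh12 (0.095) and Prph2 (0.10). The closest to Nr2e3 were Ppef2 (0.055), Cngb1 (0.059), Fam161a (0.063) and Rom1 (0.064). Of these 12 genes all but Pla2g7 (edgeR adjusted p = 0.0611) were called lower, which the choice by likeness to a called gene goes with. Among the regulators themselves, Mef2d and Otx2 differed by 0.12, Rorb and Neurod1 by 0.14, Crx and Nr2e3 by 0.29 and Nrl and Nr2e3 by 0.36.

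Other regulators of photoreceptor genes were described from a list of 24. Of these, 1 fell and 0 rose, against 1.55% and 0.664% of all tested genes, and the median log2 fold change was -0.045. The one that fell was Pias3, a SUMO ligase known to act with Crx and Nr2e3 on photoreceptor genes. It stood at 79.1 and 74.2 CPM in natural light and at 36.2, 40.1 and 39.0 CPM in blue A, B and C, with separate groups (log2 fold change -1.0, SE 0.080, edgeR adjusted p = 0.0137). It did not pass without natural light A, natural light B or blue C (edgeR adjusted p from 0.0718 to 0.111), or with the Rn45s share as a covariate (0.0748). For the 0 raised genes, edgeR gave 2 at an unadjusted p under 0.05, DESeq2 called 2 and limma-voom 0. Notch1 had a log2 fold change of 0.45 (edgeR adjusted p = 0.0655), Sp4 of -0.51 (0.0957) and Mef2c, a relative of Mef2d, of -0.60 (0.137). Samd11, the partner of Samd7, stood at 123 and 166 CPM in natural light and at 82.2, 47.9 and 110 CPM under blue light (log2 fold change -0.85, edgeR adjusted p = 0.300). The cone factor Thrb had -0.36 (0.166) and the eye field factor Rax 0.039 (0.900).

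Nr2e3 and Samd7 are known as repressors of cone genes in rods. Of 14 cone genes, 1 rose and 2 fell, against 0.664% and 1.55% of all tested genes, with a median log2 fold change of -0.17. At an unadjusted p under 0.05 in edgeR, 4 were lower and 2 higher, against 9.27% and 7.03% of all tested genes. DESeq2 called 4 lower and 1 higher. Gnb3, a G protein subunit of cones and ON bipolar cells, rose by 1.65 (SE 0.15, edgeR adjusted p = 0.0172). Arr3, cone arrestin, fell by 0.90 and Rgs9bp, an anchor of the deactivating complex that rods also use, fell by 1.61. Rgs9bp averaged 451 CPM in natural light, beside 60.8 CPM for Arr3, and its fall is not shown to be one of cones. The short-wave opsin Opn1sw had -0.52 (edgeR adjusted p = 0.322) and Kcne2 -0.61 (0.125). All 3 calls were lost without natural light A, natural light B or blue C and with the Rn45s share as a covariate, and that of Arr3 also without blue A, without blue B and with library totals as the only scaling.

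Factors of other eye cells gave no calls in edgeR, where 2.22% of all tested genes were called in either direction. At an unadjusted p under 0.05, 9.27% of all tested genes were lower and 7.03% higher. DESeq2 called 4.78% lower and 4.6% higher of the genes it gave an adjusted p. Of 10 bipolar cell factors, the cell program that Prdm1 restrains, 0 were called, with 2 lower and 2 higher at an unadjusted p under 0.05, 2 calls in each direction in DESeq2 and 0 in limma-voom. Isl1 had a log2 fold change of 0.49 (edgeR adjusted p = 0.122), Sebox of -0.70 (0.0759) and Bhlhe23 of -0.58 (0.0824). Of 21 amacrine, horizontal and ganglion cell factors 18 were tested and 0 called, with 3 higher at an unadjusted p under 0.05, 3 in DESeq2 and 0 in limma-voom. Onecut2 (0.79) and Pax6 (0.30) had the smallest p. Of 12 Muller glia factors 0 were called, with 5 higher at an unadjusted p under 0.05, 3 in DESeq2 and 0 in limma-voom, and Sox8 (0.72), Sox2 (0.45) and Sox9 (0.57) led by p. The 5 genes listed as pigment epithelium and melanocyte factors are not all particular to these cells. They had 0 calls and 0 at an unadjusted p under 0.05 in edgeR, 0 in DESeq2 and 0 in limma-voom. The 12 lens and cornea factors had 0 calls in edgeR and limma-voom, 2 higher at an unadjusted p under 0.05 and 1 call in DESeq2. The medians of these lists lay between -0.0088 and 0.20, beside -0.43 for the 10 regulators. That the lists differ was not tested.

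**Figure D5:**
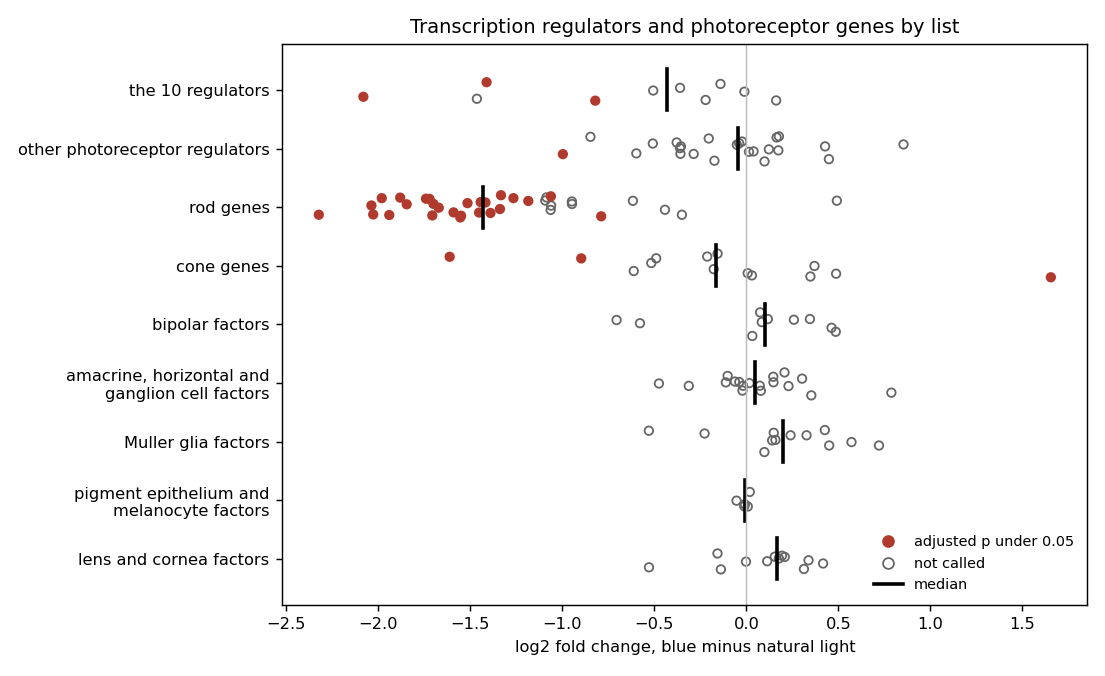
Log2 fold change (blue minus natural light, x axis) of each tested gene in 9 lists; filled points passed an adjusted p under 0.05 in edgeR and black bars are list medians. The median is -0.43 for the 10 regulators, -1.43 for rod genes, -0.17 for cone genes and between -0.0088 and 0.20 for factors of other eye cells.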

How the data were processed

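Total RNA from eyeballs was depleted of ribosomal RNA and primed at random, per the labels' protocols. Without giving roles, the submitters' processing notes list mm10, StringTie, HISAT2, limma, DESeq2 and bcl2fastq 2.0. The deposited mRNA values were taken as estimated counts that the authors had not normalised, 1 row per symbol. They are whole numbers, so no rounding was needed, but low values are uneven and no counting intervals are given. Library totals are in the report. The miRNA table was not used here. Columns were matched by title and grouped by source name, and 0 columns were left unused.

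Blue (n = 3) and natural light (n = 2) libraries were compared with edgeR 4.0.16 in R 4.3.3 (TMM, filterByExpr, quasi-likelihood F-test, Benjamini-Hochberg, threshold 0.05). Log2 CPM used a prior count of 2. Alternatives were DESeq2 1.42.0, limma-voom (limma 3.58.1), other scalings, filters, units and covariates, the letter as a block, summed overlapping genes and leaving out each library. The Rn45s covariate was added after seeing the data. In simulated counts for this comparison (18988 genes, 18676 after a second filter), 36.4% of 2-fold and 78.8% of 4-fold changes were recovered, and 14.9% of calls were unchanged genes.

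The members and lists were chosen with earlier results of these data known. Named were all 10 members, up to 4 genes per list with the smallest p (6 for rod genes, none for pigment epithelium), 6 genes whatever their values, and the 4 closest profiles to Crx, Nrl and Nr2e3. Some of these genes are not reported here.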

Additional observations from a re-analysis of the deposited data

How the results depend on the processing

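The direction of Crx, Nrl, Nr2e3, Otx2, Prdm1, Esrrb and Mef2d held in all 17 alternatives each. With 1 library left out in turn, counts of calls ran from 0 to 213 lower and from 0 to 98 higher over all genes, from 0 to 3 lower among the 10 regulators, from 0 to 28 lower and 0 to 1 higher among rod genes, from 0 to 1 in each direction among cone genes, and from 0 to 1 in each direction among other photoreceptor regulators. Where 1 natural light library remained, its spread was taken to be that of the blue group. Library totals as the only scaling gave 150 genes lower (45.3% of calls higher, in place of 29.9%) and 1 cone gene lower. With the letter as a replicate block, 0 genes were called in either direction, in the whole table and in the lists (1455 had an unadjusted p under 0.05 in edgeR). Same-letter libraries did not deviate together (r across genes -0.18 for A and -0.15 for B). Natural light A with blue B gave 0.15, and natural light B with blue A gave 0.18. The deviations of the 2 natural light libraries mirror each other, so these values are not separate checks. The letters are not shown to pair the libraries. With the Rn45s share as a covariate 6 genes were lower and 8 higher, with 0 among the regulators, rod, cone and other photoreceptor lists; the muscle covariate gave 505 and 315, with 3 lower and 1 higher other photoreceptor regulators, 4 lower cone genes, 1 higher amacrine, horizontal and ganglion cell factor and 1 higher Muller glia factor. DESeq2 called 864 lower and 833 higher, with 4 lower and 2 higher other photoreceptor regulators, 1 higher rod gene, 4 lower cone genes, 2 lower and 2 higher bipolar factors, 3 higher amacrine, horizontal and ganglion cell factors, 3 higher Muller glia factors and 1 higher lens and cornea factor. A mean of at least 5 CPM gave 1 higher bipolar factor. A log2 fold change of at least 1 in size left 133 lower and 65 higher genes, 0 other photoreceptor regulators and 1 lower cone gene. Signs turned for Neurod1 (0.0086 with DESeq2's size factors, 0.037 with library totals, 0.0093 in DESeq2, 0.020 with the Rn45s share, and from -0.12 to 0.11 with 1 library left out), Rorb (-0.019 to 0.39 with 1 left out), Samd7 (-0.59 to 0.019 with 1 left out) and Rax (-0.013 with the replicate block, -0.031 to 0.14 with 1 left out). The cause of these changes was not tested.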
